A study of Mus musculus with 24 samples.

Results

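The 801 transcripts described here are noncoding entries measured in mouse embryonic stem cells (ESCs), left after symbols ending in os, 7 imprinted transcripts and entries of low level were set aside, out of 20633 transcripts counted in the deposited table. Of the 2064 entries that carry the RefSeq prefix for noncoding RNA (NR_), 126 with a symbol ending in os were set aside, and so were 8 entries of H19, Airn, Kcnq1ot1, Meg3, Rian, Mirg and Peg13. The other 1930 entries were kept where their mean over the 12 RNA libraries was at least 10 normalised reads, which removed 1123. Of the 807 left, 6 were second entries of a symbol, and the entry with the larger sum was kept. The level over all libraries therefore chose the members. Just under the limit lay Mir467f at 9.87, 4930554G24Rik at 9.88 and 3100003L05Rik at 9.98, and just above it Gm6213 at 10.04, 4933427E11Rik at 10.05 and Gm3772 at 10.06. All 801 members were tested. The mean of the 6 untreated libraries was under 10 in 45 of them, so that these passed through their level after treatment, and 27 of the 45 are among the increases of each line given below. Of the transcripts named below these are Hoxd11, Mira, Pantr1, 5033428I22Rik, C130021I20Rik, Gm29683, 1700123O21Rik, 3110039M20Rik, 2900079G21Rik, 5730457N03Rik, Gm14204, Gm19434, Gm6307 and 2610100L16Rik, and their increases are given as descriptions. The comparison group was 14414 protein-coding genes (prefix NM_) held to the same limit.

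The study asked how much of gene repression by Polycomb repressive complex 1 (PRC1) needs its enzymatic activity. Each of its lines is 1 clone of E14 ESCs, and both carry a Cre recombinase fused to the oestrogen receptor at Rosa26 (Rosa26::ERT2-Cre), which 4-hydroxytamoxifen (OHT) switches on. PRC1CKO cells (clone B9, Ring1a-/- and Ring1bfl/fl) lack RING1A throughout and lose RING1B with OHT. PRC1CPM cells (clone 41) carry the catalytically dead RING1A of the allele Ring1aI50A/D53K throughout, and with OHT the allele Ring1b(WT->I53A/D56K)fl/fl exchanges wild-type RING1B for a catalytically dead form. Untreated cells and cells given 800 nM OHT for 72 h were each sequenced in 3 replicates per line as rRNA-depleted total RNA with Drosophila spike-in cells. Hence untreated PRC1CKO cells already lack RING1A and untreated PRC1CPM cells already carry the mutant RING1A.

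PRC1 places a single ubiquitin on lysine 119 of histone H2A (H2AK119ub1), and together with PRC2, which methylates lysine 27 of histone H3, it holds developmental genes silent in ESCs, mostly at promoters rich in CpG. Long noncoding RNAs (lncRNAs) are transcripts without a long open reading frame, made by RNA polymerase II from promoters of their own or from promoters that also fire in the opposite direction into a coding gene. Some carry small RNAs in their introns or exons, some are structural parts of enzymes such as telomerase and RNase P, and for most no function is known.

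The members' start sites differed widely in CpG content, and 4 windows of transcripts whose levels changed strongly, chosen after values were seen, show examples. They do not stand for the members at large, as those that rose in PRC1CKO cells had a median of 12 CG and those not called 13. Each runs from 250 bases before to 50 bases after the start in the deposited table, 5′ to 3′ on the strand of the transcript, read from the GRCm38.p6 assembly of RefSeq, and CG dinucleotides are in capitals. The first lies at chr3:45378211-45378510 on the minus strand and starts 2610316D01Rik, which rose in both lines and runs away from the protocadherin gene Pcdh10, whose start is 138 bp off. The second, at chr2:33640943-33641242 on the plus strand, starts C130021I20Rik, which rose in both lines. The third, at chr3:129753508-129753807 on the plus strand, starts 6330410L21Rik, and the fourth, at chr15:96197925-96198224 on the minus strand, starts 2610037D02Rik, and both of these fell in both lines. They hold 19, 34, 5 and 4 CG.
2610316D01Rik: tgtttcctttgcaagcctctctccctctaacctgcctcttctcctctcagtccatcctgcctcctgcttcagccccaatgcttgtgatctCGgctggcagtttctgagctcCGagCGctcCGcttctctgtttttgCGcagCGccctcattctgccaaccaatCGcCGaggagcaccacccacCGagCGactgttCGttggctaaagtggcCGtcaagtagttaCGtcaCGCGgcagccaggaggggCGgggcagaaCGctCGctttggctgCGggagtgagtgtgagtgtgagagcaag
C130021I20Rik: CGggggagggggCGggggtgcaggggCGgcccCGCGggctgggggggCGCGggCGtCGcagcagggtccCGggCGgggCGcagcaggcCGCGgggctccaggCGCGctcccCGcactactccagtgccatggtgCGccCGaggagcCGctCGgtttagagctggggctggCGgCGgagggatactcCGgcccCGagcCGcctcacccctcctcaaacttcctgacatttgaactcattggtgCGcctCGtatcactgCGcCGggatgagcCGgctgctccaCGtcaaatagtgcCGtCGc
6330410L21Rik: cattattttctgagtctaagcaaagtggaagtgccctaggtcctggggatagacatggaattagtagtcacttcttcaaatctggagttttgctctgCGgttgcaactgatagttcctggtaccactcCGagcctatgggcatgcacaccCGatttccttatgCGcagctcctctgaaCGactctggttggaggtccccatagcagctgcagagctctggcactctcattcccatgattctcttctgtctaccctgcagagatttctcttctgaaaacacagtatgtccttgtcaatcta
2610037D02Rik: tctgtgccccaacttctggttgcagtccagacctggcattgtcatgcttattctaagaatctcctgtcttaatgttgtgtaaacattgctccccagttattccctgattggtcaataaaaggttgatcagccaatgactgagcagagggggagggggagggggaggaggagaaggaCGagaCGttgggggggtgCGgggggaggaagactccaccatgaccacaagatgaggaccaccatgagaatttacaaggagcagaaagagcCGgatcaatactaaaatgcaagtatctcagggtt
Among all 20630 entries with such a window the median was 15 CG, 51.7% held at least 15 and 97.3% held at least 1, and the letters of this motif are the same on both strands.

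Members also enclose genes of microRNAs (miRNAs), short RNAs that pair with mRNAs through their seed, bases 2 to 8, shown in capitals. Mature miRNAs were not measured in these libraries, and a host's level is not that of its miRNA. AI854517 encloses Mir9-3 (chr7:79505279-79505301, plus strand), 2610203C20Rik encloses Mir125b-1 (chr9:41581940-41581961, plus strand), and Mirlet7bhg encloses Mirlet7b (chr15:85707325-85707346, plus strand), whose miRNAs are known from neural and later development.
mmu-miR-9-5p: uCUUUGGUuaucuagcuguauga
mmu-miR-125b-5p: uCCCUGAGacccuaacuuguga
mmu-let-7b-5p: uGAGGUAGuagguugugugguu
D7Ertd143e encloses a cluster characteristic of ESCs, of which Mir291a (chr7:3218968-3218989), Mir294 (chr7:3220691-3220712) and Mir295 (chr7:3220815-3220837), all on the plus strand, share the seed AAGUGCU.
mmu-miR-291a-3p: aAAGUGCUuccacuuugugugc
mmu-miR-294-3p: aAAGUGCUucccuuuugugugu
mmu-miR-295-3p: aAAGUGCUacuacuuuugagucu
Kis2, on the X chromosome, ends where miR-106a begins (chrX:52742541-52742563, minus strand), with Mir20b further on (chrX:52742159-52742181, minus strand), and these share the seed AAAGUGC.
mmu-miR-106a-5p: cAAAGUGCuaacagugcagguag
mmu-miR-20b-5p: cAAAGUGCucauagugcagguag
Positions are those of the mature miRNA in GRCm38.p6.

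The label noncoding held for most but not all members. RefSeq gives 620 as lncRNA, 41 as transcribed pseudogenes, 21 as miRNA, 98 as products of protein-coding genes and 13 were not matched, with structural, guide and antisense RNAs making up the rest. The deposited table gives each entry's whole span, and 99 members are noncoding isoforms of a coding gene, of which 45 share their symbol with an NM_ entry, so that the same reads can be counted in both. The overlap is partial in some, as in Ccl25, with a mean of 916 for the noncoding and 79.6 for the coding entry. In PRC1CKO cells 14 of these 45 changed, and the NM_ entry changed the same way in 13 of the 14. A further 25 members, 21 miRNA symbols and 4 pseudogenes, have an entry over 2 times as long as the RefSeq gene. Mir8115, for example, is listed over 827678 bp that overlap 13 coding genes, so that its mean of 7699 normalised reads says nothing of the miRNA. In all, 258 members overlap a coding gene of another symbol, and since the use of strand in counting is not given in the sources used here, reads of overlapping genes cannot be told apart.

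The libraries held 14668159 to 27016156 reads on genes, of which 356806 to 640828 (2.23% to 2.75%) fell on members. The deposited value, the normalised read count, is the number of reads on a transcript divided by a factor per library from the Drosophila spike-in, so that levels are per amount of input cells. Malat1, an abundant nuclear lncRNA, took 23.0% to 29.7% of the members' reads in each library. The members' normalised counts summed to between 421620 and 636712 per library, both extremes being untreated PRC1CKO libraries, replicates 3 and 1. Per kb of transcribed span the 6 members with the highest mean level over the 12 libraries were Rmrp (48894 normalised reads per kb), the RNA of RNase MRP, Rpph1 (28940), that of RNase P, Malat1 (19210), Terc (6552), the RNA of telomerase, Scarna13 (4409), a small Cajal body RNA, and D7Ertd143e (3422). In these abundant RNAs no change passed the test in either line. Malat1 stood at 176063, 116933 and 108103 in untreated and 117408, 116617 and 125875 in OHT-treated PRC1CKO libraries, and at 166736, 155365 and 111356 against 159282, 124120 and 131609 in PRC1CPM cells, with log2 fold changes of -0.12 ± 0.20 (SE) and -0.05 ± 0.20. Its groups overlapped in both lines, and untreated PRC1CKO replicate 1 was the highest of all.

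In PRC1CKO cells, after 72 h of OHT, 85 of the 801 noncoding transcripts rose (10.6%; 16.5% of all 16940 transcripts tested) and 51 fell (6.37%; 3.09% of all tested). Calls needed more than a 1.5-fold change and an adjusted p below 0.05 from limma on log2(normalised read count + 1), with Benjamini-Hochberg adjustment over all transcripts tested. Fold changes are on this scale, which understates those of low transcripts. The 8 largest increases, from 6.64 to 3.91 on the log2 scale, were those of the noncoding isoform of Hoxd11, Mira in the HoxA cluster, 5033428I22Rik near Hand2, Pantr1 near Pou3f3, C130021I20Rik beside Lmx1b, 2610316D01Rik beside Pcdh10, Gm29683 near Nr2f2 and the noncoding isoform of Slc6a17. The largest decreases were those of 6330410L21Rik (-3.98) and Kis2 (-2.9995). In the 756 members whose untreated mean was at least 10, 58 rose (7.67%) and 51 fell (6.75%). The shares of all transcripts at that untreated limit are not given here. With the replicate number as a block, whose criterion for pairing was not met in this line, 116 rose (14.5%; 20.3% of all tested) and 89 fell (11.1%; 4.86%).

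In PRC1CPM cells, where OHT removes PRC1 catalysis but leaves the complex, 70 members rose (8.74%; 13.1% of all tested) and 28 fell (3.50%; 1.4% of all tested). Among the 756, 43 rose (5.69%) and 28 fell (3.70%), again without a share of all transcripts at that limit. The count of decreases ran from 14 to 38 over the libraries left out in turn, being 16 and 14 without OHT-treated replicates 2 and 3 and 17 and 15 without untreated replicates 1 and 3 of this line, and 9 of the 28 were called in each of the 12 fits. Same-numbered libraries of this line deviated together, and with the replicate number as a block the counts were 92 higher (11.5%; 17.9% of all tested) and 73 lower (9.11%; 2.72%). Of the members that rose, 61 rose in both lines, 24 in PRC1CKO cells alone and 9 in PRC1CPM cells alone. Of those that fell, 22 fell in both, 29 in PRC1CKO cells alone and 6 in PRC1CPM cells alone. No member was called in opposite directions, and of the 24 increases called in PRC1CKO cells alone, 23 had a fold change above 0 in PRC1CPM cells, as all 29 decreases had one below 0. The lines do not share libraries, but the members called in 1 line alone are not shown to differ between them. The same split over all transcripts tested is not given here, so that the overlap is not shown to be particular to members.

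**Figure D1:**
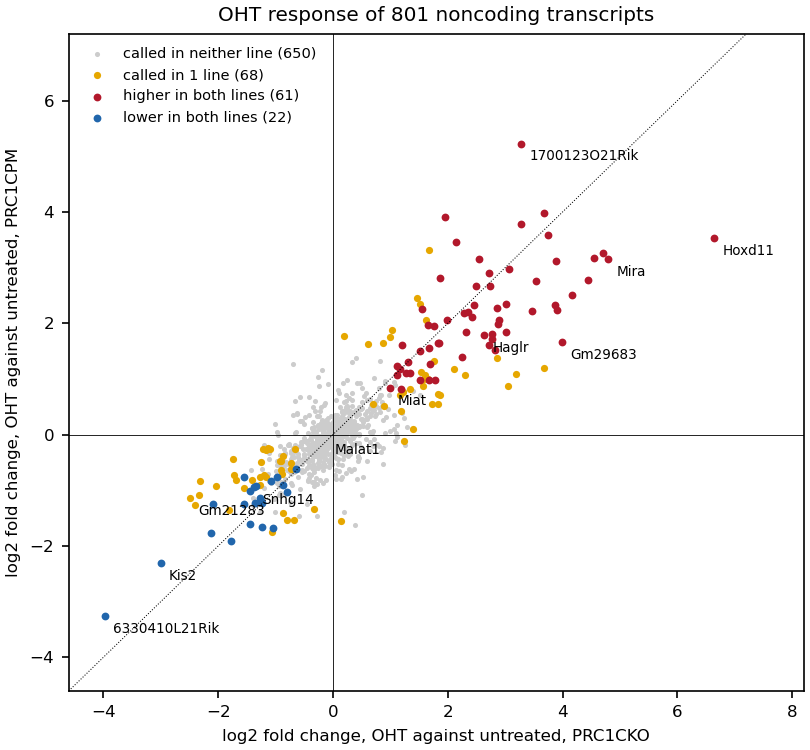
Log2 fold change after OHT in PRC1CKO cells (horizontal axis) and in PRC1CPM cells (vertical axis) for each of the 801 noncoding transcripts, 1 point per transcript, coloured by its call in the limma test, with the dotted line marking equal change. On the deposited spike-in scale the 61 transcripts that rose in both lines lie mostly below the dotted line. The 22 that fell in both reach down to 6330410L21Rik at -3.98 and -3.26.

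The split of calls depended on how libraries were scaled. With the deposited spike-in scale 62.5% of the calls in PRC1CKO cells were increases, against 46.6% (90 higher and 103 lower) with TMM factors, which centre the bulk of transcripts. In PRC1CPM cells the share was 71.4%, against 48.6% (71 and 75) with TMM and 91.3% (95 and 9) with the spike-in scale before its correction by genomic DNA. In PRC1CKO cells this uncorrected scale moved the share the other way, to 56.0% (75 and 59). TMM shifted the median over all transcripts tested from 0.12 to -0.002 in PRC1CKO and from 0.10 to -0.01 in PRC1CPM cells, and the uncorrected spike-in moved the latter to 0.39. Over all transcripts tested the share of increases among calls in PRC1CKO cells was 84.2%, 71.5% with TMM and 76.2% without the correction. In PRC1CPM cells it was 90.4%, 80.1% with TMM and 98.1% without the correction. The members' own median was -0.03 in PRC1CKO and -0.06 in PRC1CPM cells, and it turned to 0.22 in PRC1CPM cells with the uncorrected spike-in. Relative to the coding median it lay 0.14 lower in PRC1CKO cells under the deposited scale, and 0.13 and 0.14 lower under the others. In PRC1CPM cells it lay 0.15, 0.15 and 0.16 lower.

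Beside coding genes of like level the noncoding transcripts held fewer increases and more decreases. Coding genes were weighted to the members' distribution over 7 ranges of the mean, from 10 to 20 up to 1000 and above. In PRC1CKO cells 10.6% of members rose (95% Wilson interval 8.66% to 12.9%), against 23.4% of coding genes so weighted, and 6.37% fell (4.88% to 8.27%), against 2.71%. In PRC1CPM cells 8.74% rose (6.98% to 10.9%) against 19.2%, and 3.50% fell (2.43% to 5.01%) against 1.15%. The intervals cover counting error over members alone, and members share loci and libraries. In each line 27 of the increases were of members with an untreated mean under 10, so that the shares of increases are descriptions. Among the 756 other members 7.67% rose in PRC1CKO and 5.69% in PRC1CPM cells. With ranges set on untreated levels the differences for increases were -17.2 and -14.9 percentage points. Both groups were still admitted on the mean over all 12 libraries. Genes with an untreated mean under 10 thus entered through their OHT-treated libraries, and these differences are descriptions too. The gap was widest between 100 and 200 normalised reads, where 5.75% of 87 members and 30.9% of 1286 coding genes rose in PRC1CKO cells. The excess of decreases did not hold in every range. Between 10 and 20 in PRC1CKO cells 1.73% of members (3) and 1.93% of coding genes fell. At 1000 and above in PRC1CPM cells 1.14% of members (1) and 1.34% of coding genes fell. In all other ranges of each line members held the larger share of decreases. For decreases in PRC1CPM cells members exceeded coding genes by 2.35 percentage points, by 6.54 with TMM, by 6.43 with the replicate block and by 0.745 without the correction by genomic DNA, where both shares were lower (1.12% and 0.379%). For decreases in PRC1CKO cells the difference was 3.66 points, 6.72 with TMM and 5.94 with the block. For increases in PRC1CPM cells it was -10.5 points, -12.5 with TMM and -16.4 with the block.

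**Figure D2:**
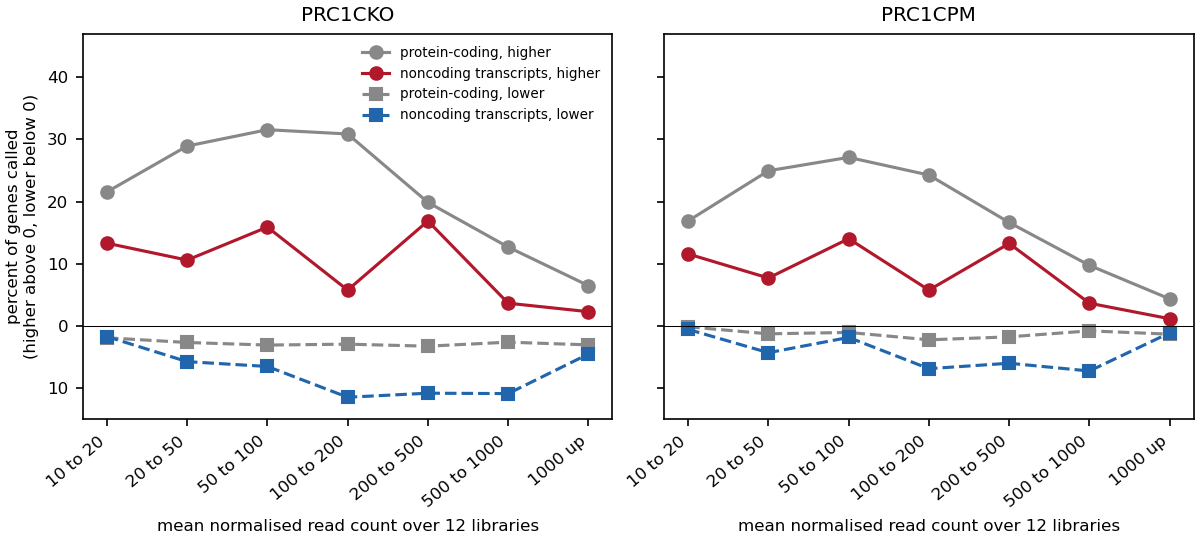
Percent of genes called higher (above 0) and lower (below 0) after OHT, by range of the mean normalised read count over 12 libraries, for the noncoding transcripts (colour) and protein-coding genes (grey), in PRC1CKO and PRC1CPM cells. In PRC1CKO cells the share of members that rose lies below that of coding genes in all 7 ranges.

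Hoxd11 here is a noncoding isoform of the homeobox gene (chr2:74679558-74687016, plus strand). Its normalised read count was 0, 4.62 and 0 in untreated and 189, 166 and 175 in OHT-treated PRC1CKO cells, and 5.11, 1.88 and 4.07 against 46.3, 33.2 and 84.3 in PRC1CPM cells. All OHT-treated libraries lay above all untreated ones in both lines, and the PRC1CKO ones were the highest. The log2 fold change was 6.64 ± 0.57 and 3.53 ± 0.57, and the coding entry of the same gene, which can share these reads, rose by 6.62 and 3.34. Its neighbour Hoxd12 rose by 3.97 and 3.04, from no read in untreated PRC1CPM libraries, where the increase was at least 6.90-fold against a floor of 3 reads over the group.

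Mira is a lncRNA between the anterior genes of the HoxA cluster (chr6:52214492-52215288, minus strand), with Hoxa3 as nearest coding start, 2221 bp away. No read was counted in the 3 untreated PRC1CKO libraries, and after OHT the level was 20.8, 30.5 and 29.7, an increase of at least 28.4-fold. In PRC1CPM cells it was 0, 3.77 and 2.71 untreated and 28.0, 18.6 and 20.8 with OHT. The groups were apart in both lines, with log2 fold changes of 4.79 ± 0.69 and 3.15 ± 0.69, and Hoxa3 rose by 2.91 and 3.09.

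Pantr1 lies 2321 bp from Pou3f3, a POU-domain factor of neural development, and spans chr1:42648200-42694825 on the minus strand. Its level went from 0, 1.54 and 0 to 21.7, 29.6 and 46.2 in PRC1CKO cells, and from 0, 3.77 and 2.71 to 22.2, 29.4 and 17.5 in PRC1CPM cells. OHT-treated libraries were again all above untreated ones. With 2 untreated reads in PRC1CKO cells the ratio was 51.6 (95% counting interval 13.9 to 431), the fitted log2 fold changes were 4.55 ± 0.68 and 3.18 ± 0.68, and Pou3f3 rose by 3.93 and 2.11. 5033428I22Rik (chr8:57332435-57354580, plus strand) lies 11452 bp from Hand2, a factor of heart and limb. It rose from 1.49, 3.08 and 1.69 to 90.4, 79.6 and 64.6 in PRC1CKO cells and from 2.56, 3.77 and 0 to 43.4, 15.5 and 19.7 in PRC1CPM cells, with no overlap of groups and log2 fold changes of 4.70 ± 0.61 and 3.27 ± 0.61. Hand2 itself had no read in untreated PRC1CKO libraries and rose at least 31.9-fold.

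C130021I20Rik (chr2:33641193-33645663, plus strand) starts 682 bp from Lmx1b, a LIM homeobox gene of dorsal limb and midbrain, and runs away from it. It measured 2.98, 4.62 and 1.69 in untreated and 94.0, 81.5 and 76.8 in OHT-treated PRC1CKO cells, and 15.3, 3.77 and 6.78 against 77.2, 49.5 and 48.2 in PRC1CPM cells. Treated and untreated libraries did not overlap, and the log2 fold changes were 4.44 ± 0.51 and 2.77 ± 0.51, beside 2.74 and 1.33 for Lmx1b. 2610316D01Rik, paired in the same way with Pcdh10, went from 20.9, 6.93 and 8.46 to 202, 214 and 214, and in PRC1CPM cells from 46.0, 22.6 and 10.8 to 168, 107 and 129. Its log2 fold changes of 4.16 ± 0.43 and 2.50 ± 0.43 stood beside 4.17 and 2.82 for Pcdh10, and in both lines its groups were apart.

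Gm29683 spans 158955 bp on chr7 near Nr2f2, an orphan nuclear receptor gene whose start is 28924 bp away. It rose from 14.9, 3.08 and 3.38 to 170, 77.8 and 83.7 in PRC1CKO cells (log2 fold change 3.99 ± 0.51) and from 7.67, 16.96 and 12.2 to 59.8, 37.9 and 26.3 in PRC1CPM cells (1.66 ± 0.51). The groups were apart in both lines. The second value was 1.36 without OHT-treated replicate 1, 1.68 without OHT-treated replicate 2 and 1.38 without untreated replicate 1 of that line. In PRC1CPM cells Gm29683 lost its call in 3 of the 12 fits that leave out a library. The noncoding isoform of Slc6a17, a vesicular amino acid transporter of neurons, rose by 3.91 and 2.24, and the coding entry by 3.55 and 2.20.

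The 8 largest increases of PRC1CPM cells brought in 7 other transcripts. 1700123O21Rik lies within Rbfox1, a neuronal splicing factor, on the same strand. It had no read in untreated PRC1CPM libraries and 55.0, 36.3 and 24.1 normalised reads after OHT, an increase of at least 33.4-fold, and it went from 2.98, 3.08 and 1.69 to 32.5, 33.3 and 33.1 in PRC1CKO cells. All treated libraries were above all untreated ones, with fitted log2 fold changes of 5.23 ± 0.62 and 3.27 ± 0.62 and of 2.33 and 2.85 for Rbfox1. 3110039M20Rik had 3 reads in untreated PRC1CPM libraries and a ratio of 25.2 (8.37 to 124) after OHT, and it rose by 3.68 in PRC1CKO cells. 9130227L01Rik rose by 3.79 and 3.27 (PRC1CPM first), 2900079G21Rik, near Arpp21, by 3.91 and 1.96, and 5730457N03Rik, over the homeobox gene Evx1, by 3.58 and 3.74. Gm14204, which starts 35 bp from Slc32a1, the vesicular GABA transporter gene, rose by 3.46 and 2.14 beside 2.13 and 2.11 for Slc32a1. Gm19434 rose by 3.31 in PRC1CPM cells and stood at 1.67 in PRC1CKO cells. In PRC1CKO cells the value of 2900079G21Rik was 1.70 without OHT-treated replicate 3 and 1.65 without untreated replicate 3, and that of Gm14204 was 1.63 without untreated replicate 2. Their PRC1CKO calls were lost in 2 and 1 of the 12 fits that leave out a library.

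**Figure D3:**
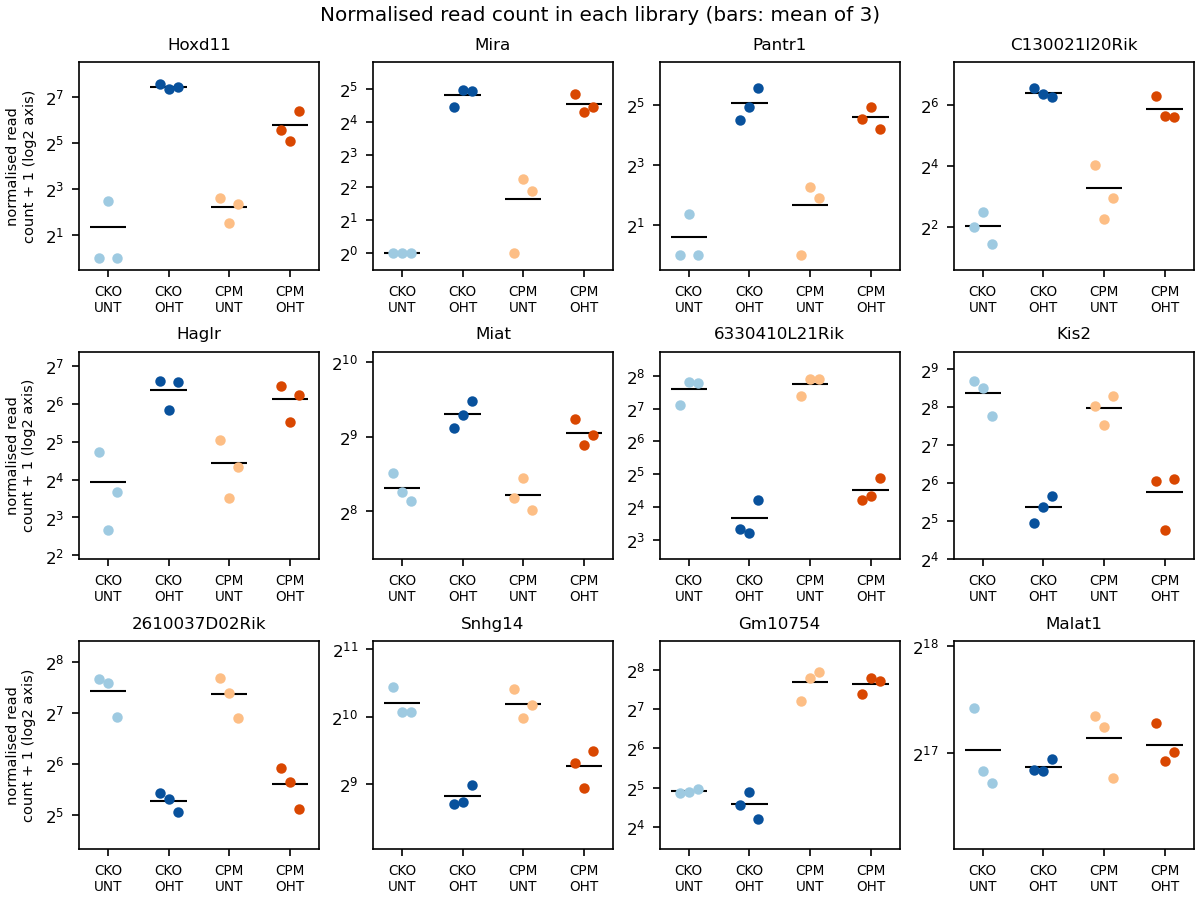
Normalised read count plus 1 (log2 axis) of 12 named noncoding transcripts in each of the 12 libraries, by line and treatment, with 1 point per replicate and a bar at the mean of 3. The top row and Haglr and Miat show OHT-treated libraries above untreated ones in both lines, 6330410L21Rik, Kis2, 2610037D02Rik and Snhg14 show them below, Gm10754 differs between the lines, and Malat1 overlaps throughout.

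Of the 8 largest decreases in PRC1CKO cells, 3 had a nearest coding gene that fell and 1 had one that rose. 6330410L21Rik (chr3:129753758-129763882, plus strand) overlaps Egf, the gene of epidermal growth factor, on the opposite strand. It stood at 137, 224 and 216 in untreated and 9.04, 8.33 and 17.4 in OHT-treated PRC1CKO cells, and at 166, 237 and 240 against 17.4, 19.3 and 28.5 in PRC1CPM cells. Every treated library was far below every untreated one, with log2 fold changes of -3.98 ± 0.39 (adjusted p 6.3e-12, limma) and -3.26 ± 0.39 (4.4e-09). Egf stood at 0.02 (adjusted p 0.98) and -0.35 (0.62).

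Kis2 (chrX:52742563-52744593, minus strand), the transcript that ends at miR-106a, measured 411, 367 and 219 in untreated and 29.8, 40.7 and 49.7 in OHT-treated PRC1CKO cells. In PRC1CPM cells it measured 262, 186 and 312 against 65.6, 26.3 and 67.9. Again no groups overlapped, and the log2 fold changes were -2.9995 ± 0.35 (adjusted p 1.3e-09, limma) and -2.31 ± 0.35 (1.5e-06). The nearest coding gene, Ccdc160, whose start is 46607 bp away, fell by 1.00 in PRC1CKO cells and stood at -0.63 (adjusted p 0.23) in PRC1CPM cells. 2610037D02Rik (chr15:96190474-96197974, minus strand) went from 203, 192 and 121 to 42.5, 38.9 and 32.3 in PRC1CKO cells and from 206, 168 and 119 to 59.8, 49.5 and 34.0 in PRC1CPM cells. All OHT-treated libraries were below all untreated ones (-2.13 ± 0.35 and -1.76 ± 0.35), with no coding start within 50 kb.

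Other decreases did come with a neighbour. 5730420D15Rik, which starts 1891 bp from Socs2, a suppressor of cytokine signalling, went from 71.5, 77.7 and 48.2 to 9.04, 8.33 and 19.2 in PRC1CKO cells (-2.40 ± 0.45, adjusted p 4e-05, limma), where Socs2 fell by 1.88. In PRC1CPM cells it measured 48.6, 43.4 and 38.0 against 24.1, 17.8 and 12.05, without overlap but at an adjusted p of 0.051 (-1.27), and 0.0045 with the replicate block, and Socs2 fell by 1.02. 1700042O10Rik, on the strand opposite to the dopa decarboxylase gene Ddc, fell by 2.34 in PRC1CKO cells and Ddc by 0.95. 1190002F15Rik, 8691 bp from the cell cycle inhibitor gene Cdkn1b, fell by 1.68 in PRC1CPM and by 1.04 in PRC1CKO cells, where Cdkn1b fell by 0.86. The PRC1CKO call of 1190002F15Rik was lost without untreated replicate 1 (-0.61, adjusted p 0.252), untreated replicate 3 (-1.14, 0.0600) or OHT-treated replicate 2 (-0.78, 0.193). Gm15915 went the other way from its coding neighbour. On the strand opposite to Ntn4, the gene of the laminin-like protein netrin 4, it fell by 2.09 in PRC1CKO cells while Ntn4 rose by 1.53. In PRC1CPM cells it passed at an adjusted p of 0.049 (-1.24) with overlapping groups, and the call was lost in 8 of the 12 fits that leave out a library.

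Further members of the largest decreases were Gm21283 (-2.49) and 5330434G04Rik (-2.32) in PRC1CKO cells, and 1700020G17Rik (-1.90), B930003M22Rik (-1.75), Rmst (-1.65) and 4930444M15Rik (-1.61) in PRC1CPM cells. B930003M22Rik starts 558 bp from Qk, the gene of an RNA-binding protein, which stood at 0.00 in PRC1CPM and -0.05 in PRC1CKO cells, and its own call was lost without OHT-treated PRC1CPM replicate 2 (-0.99, adjusted p 0.212). That of 4930444M15Rik in PRC1CPM cells was lost without untreated replicate 3 (-1.48, 0.0582).

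The nearest coding start lay within 50 kb for 602 members. In PRC1CKO cells 31 of the 50 such members that rose had a neighbour that rose (62.0%), against 49 of 519 members that were not called (9.44%). Of the 33 that fell, 11 had a neighbour that fell (33.3%), against 18 of the 519 not called (3.47%), and 3 had one that rose. In PRC1CPM cells the neighbour rose beside 27 of 42 members that rose (64.3%) and 35 of 541 not called (6.47%), and it fell beside 1 of 19 that fell (5.26%) and 10 of the 541 (1.85%). Where the spans do not overlap and the starts lie within 2 kb, 14 of 17 neighbours of members that rose did so in PRC1CKO cells, against 9 of 178 beside members not called. Beyond 50 kb 15 of 35 rose, against 24 of 146. Of all transcripts tested, 16.5% rose and 3.09% fell in PRC1CKO cells, and 13.1% and 1.4% in PRC1CPM cells. In these counts a neighbour that was not tested stands as not called. Members that passed through their OHT-treated libraries, such as Pantr1 and C130021I20Rik, are among those that rose, so that the shares are descriptions. Across the 567 pairs with a tested neighbour Pearson's r of the log2 fold changes was 0.665 in PRC1CKO and 0.576 in PRC1CPM cells, as a description, since pairs share libraries and in part reads. In the 420 pairs without overlap it was 0.676 and 0.572.

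**Figure D4:**
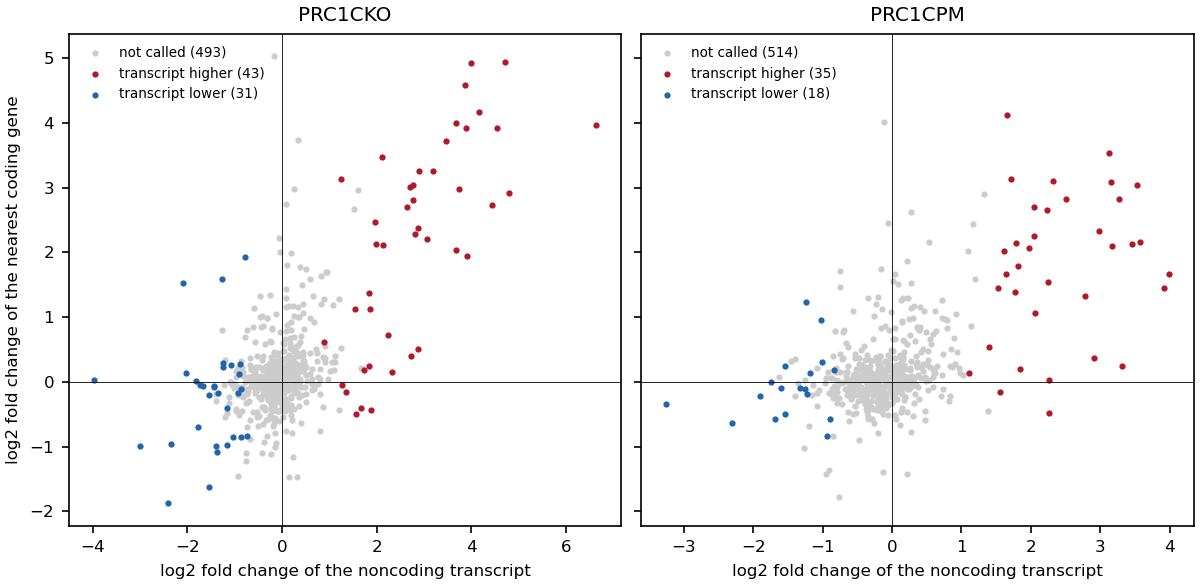
Log2 fold change of each noncoding transcript (horizontal axis) and of its nearest coding gene within 50 kb (vertical axis) after OHT, in PRC1CKO and PRC1CPM cells, 1 point per pair with a tested neighbour, coloured by the call of the noncoding transcript. Red points, transcripts that rose, spread along the upper right, while blue points, transcripts that fell, lie on both sides of 0 on the vertical axis.

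Set beside 16.5% higher and 3.09% lower among all tested, 17 of 99 isoforms of coding genes rose in PRC1CKO cells (17.2%) and 5 fell, 36 of 306 transcripts apart from coding genes rose (11.8%) and 27 fell (8.82%), and 15 of 146 that run away from a coding start within 2 kb rose (10.3%) and 3 fell (2.05%). Of the 202 that overlap a coding gene on the opposite strand 11 rose (5.45%) and 14 fell (6.93%), and of the 48 on the same strand 6 rose and 2 fell. In PRC1CPM cells these classes held 14, 32, 10, 9 and 5 increases and 3, 14, 2, 8 and 1 decreases, in the same order (13.1% and 1.4% of all tested). The classes were not tested against each other. The median number of CG in the start window was 12 for members that rose in PRC1CKO cells, 6 for those that fell and 13 for those not called, against 20, 14.5 and 20 for coding genes. The medians differed by distance from a coding start: within 2 kb of one the medians were 25, 15 and 25, and elsewhere 7, 4 and 7. In PRC1CPM cells the medians were 9, 4 and 13.

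Among named lncRNAs of development, 15 of 34 listed symbols were in the table and 9 were measured. In PRC1CKO cells 4 rose (Mira, Pantr1, Haglr and Fendrr) and 3 fell (Halr1, Rmst and Sox2ot), beside 16.5% and 3.09% of all tested, with a median log2 fold change of 0.73, also with Mira at its lower bound. Mira and Pantr1 are among the members with an untreated mean under 10. In PRC1CPM cells 3 rose and 2 fell (13.1% and 1.4% of all tested), with a median of -0.06, against 0.12 and 0.10 over all transcripts tested. Haglr (chr2:74748422-74762896, minus strand) starts 84 bp from Hoxd1 and runs away from it. It went from 25.3, 5.39 and 11.8 to 94.9, 55.5 and 94.2 in PRC1CKO cells and from 32.0, 10.4 and 18.98 to 86.9, 44.8 and 74.5 in PRC1CPM cells. The groups were apart in both lines, with log2 fold changes of 2.63 ± 0.47 (adjusted p 1.7e-05, limma) and 1.78 ± 0.47 (0.0050), and Hoxd1 rose by 2.70 and 2.15.

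Halr1 lies beside the HoxA cluster (chr6:52102949-52113684, plus strand), and it fell: from 1204, 706 and 831 to 306, 282 and 321 in PRC1CKO cells (-1.55 ± 0.25, adjusted p 2.9e-06, limma) and from 928, 536 and 752 to 513, 358 and 416 in PRC1CPM cells (-0.76 ± 0.25, 0.032). Treated libraries were below untreated ones in both lines, by less in PRC1CPM cells. The second call was lost in 4 of the 12 fits that leave out a library, namely OHT-treated PRC1CPM replicate 2 (-0.64, adjusted p 0.112) or 3 (-0.75, 0.0941) and untreated replicate 1 (-0.58, 0.186) or 3 (-0.73, 0.128), and with the uncorrected spike-in (-0.47, 0.264). Mira, within that cluster, rose in both lines.

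Sox2ot is transcribed across Sox2, a core factor of pluripotency, on the same strand, and their reads cannot be fully told apart. It went from 10217, 7551 and 7374 to 4026, 4536 and 4721 in PRC1CKO cells (-0.91 ± 0.20, adjusted p 0.00032, limma) and from 7283, 6742 and 7170 to 5739, 4345 and 5321 in PRC1CPM cells (-0.47 ± 0.20, 0.11). All treated libraries were below untreated ones in both lines, and Sox2 stood at -0.89 and -0.45. Rmst, a lncRNA known from neural differentiation, fell from 76.7, 117 and 86.8 to 32.8, 20.9 and 34.0 in PRC1CPM cells (-1.65 ± 0.43) and measured 78.9, 36.9 and 45.7 against 16.3, 14.8 and 39.3 in PRC1CKO cells (-1.23 ± 0.43, adjusted p 0.032). Its PRC1CKO groups overlapped, and that call was lost without OHT-treated replicate 1 (-1.05, 0.155) or 2 (-0.98, 0.185) or untreated replicate 1 (-0.92, 0.135) or 3 (-1.31, 0.0626).

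Fendrr, which runs away from the start of Foxf1, a mesodermal forkhead factor, 1276 bp off, was 14.9, 13.9 and 15.2 untreated and 30.7, 43.5 and 34.9 with OHT in PRC1CKO cells (1.24 ± 0.46, adjusted p 0.049, limma). In PRC1CPM cells it was 43.5, 36.8 and 21.7 against 40.5, 42.5 and 15.3 (-0.12). The PRC1CKO groups were apart and the PRC1CPM groups overlapped, and Foxf1 rose in both lines, by 3.14 and 4.02. The call of Fendrr was lost in 7 of the 12 fits that leave out a library, with adjusted p from 0.0508 without OHT-treated PRC1CPM replicate 2 to 0.188 without OHT-treated PRC1CKO replicate 2, the others being each other PRC1CKO library.

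Of 5 nuclear lncRNAs (Malat1, Neat1, Miat, Tug1 and Pvt1) only Miat was called (1 higher in each line, beside 16.5% and 13.1% of all tested). It rose from 366, 306 and 282 to 554, 626 and 715 in PRC1CKO cells (0.99 ± 0.25, adjusted p 0.0022, limma) and from 289, 349 and 258 to 605, 472 and 519 in PRC1CPM cells (0.84 ± 0.25, 0.014). Treated and untreated libraries were apart in both lines, and the PRC1CPM call was lost without OHT-treated PRC1CPM replicate 1 (0.74, 0.0711) or untreated replicate 3 (0.74, 0.117). Neat1, the scaffold of paraspeckles, stood at -0.07 and 0.05 with a standard error of 0.23, and Tug1 at -0.16 and -0.37 ± 0.22. Pvt1 stood at 0.49 and 0.46 ± 0.22 (adjusted p 0.13 and 0.20, limma, and 0.00089 and 0.0023 with the replicate block, under the 1.5-fold limit). It was higher with OHT in all 3 same-numbered pairs of each line, with groups that overlapped. The list's medians were -0.07 and 0.05. Of 6 measured proteins of paraspeckles and speckles none was called.

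Of 11 measured transcripts listed as hosts of small nucleolar RNAs (snoRNAs), only Snhg14 was called (1 lower in each line, beside 3.09% and 1.4% of all tested). SnoRNAs guide the modification of ribosomal RNA. The list's medians were -0.03 and -0.01. The other 10 enclose snoRNA genes of RefSeq on their own strand, whereas the Snhg14 entry measured here encloses none. Snhg14 lies in the imprinted Snrpn region (chr7:59969577-59974431, minus strand). It went from 1396, 1072 and 1078 to 419, 427 and 508 in PRC1CKO cells (-1.38 ± 0.23, adjusted p 5.2e-06, limma) and from 1362, 1006 and 1151 to 636, 490 and 717 in PRC1CPM cells (-0.94 ± 0.23, 0.0026), with groups apart in both lines. With the uncorrected spike-in the second change was -0.64 (adjusted p 0.0889). Snrpn, whose start is 30725 bp away, fell by 1.08 and 0.84. Gas5 stood at -0.03 ± 0.20 and 0.12 ± 0.20 and Snhg3 at -0.005 ± 0.22 and -0.25 ± 0.22. None of 7 measured snoRNP proteins was called.

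No member of the structural RNA list (Rmrp, Rpph1 and Terc), of the X inactivation centre (Xist, Tsix, Jpx and Ftx), of the pluripotency list (Snhg3, Lincenc1 and Tunar) or of the 5 measured miRNA hosts was called in either line, by limma, beside 16.5% higher and 3.09% lower of all tested in PRC1CKO and 13.1% and 1.4% in PRC1CPM cells. With the replicate block, whose criterion was not met in PRC1CKO cells, Tunar (0.73 ± 0.28, adjusted p 0.063, and 0.00028 with the block) and Mirlet7bhg (1.24, 0.053 and 0.0028) passed there. The medians in PRC1CKO and PRC1CPM cells were 0.08 and -0.19, 0.08 and -0.22, -0.005 and -0.02, and 0.25 and 0.27. Terc was at 0.46 ± 0.24 in PRC1CKO cells and passed without untreated PRC1CKO replicate 1 (0.80, adjusted p 0.00629), the library in which it was highest among the untreated. Tsix stood at 0.18 and -0.23 (SE 0.23) and Ftx at -0.02 and -0.20 (SE 0.24). Mir17hg, host of a cluster linked to proliferation, stood at 0.25 and 0.27 (SE 0.23), and Mir22hg at 0.25 and 0.12 (SE 0.28). Of 5 lncRNAs linked to the p53 pathway 1 was called, as Trp53cor1 fell by 0.91 ± 0.30 in PRC1CKO cells (adjusted p 0.023), from 597, 418 and 289 to 271, 225 and 176, and stood at -0.64 ± 0.30 (0.18, and 0.0010 with the replicate block) in PRC1CPM cells. Its PRC1CKO call was lost without OHT-treated replicate 3 (-0.75, 0.131) or untreated replicate 1 (-0.65, 0.127), and Cdkn1a, the nearest coding gene, stood at 0.12 and 0.54. Of the proteins that act on such RNAs, none of 24 in RNA decay, 9 in miRNA biogenesis or 6 in the 7SK and telomerase particles was called.

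**Figure D5:**
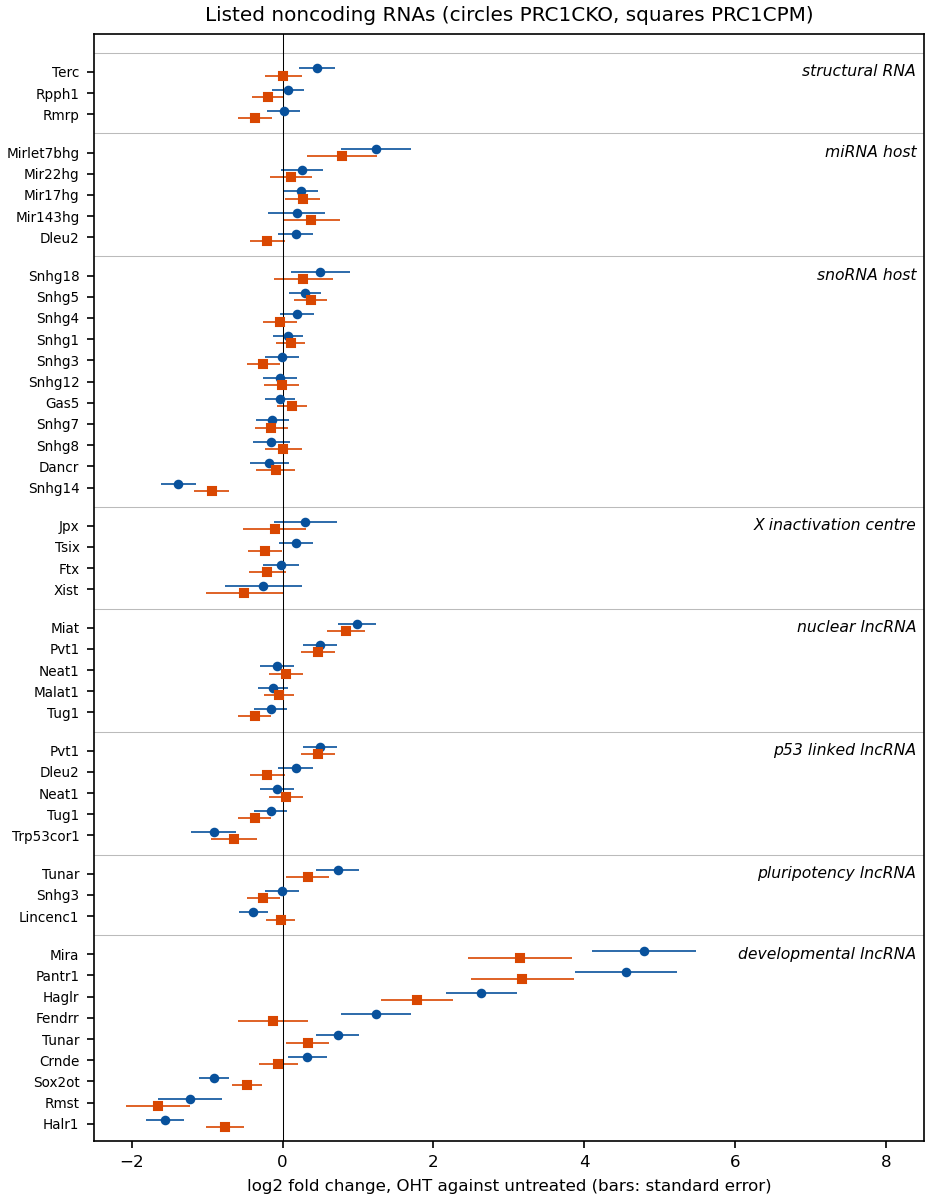
Log2 fold change after OHT, with its standard error from limma, of the listed noncoding RNAs in PRC1CKO (circles) and PRC1CPM cells (squares), grouped by list. Developmental lncRNAs spread from Halr1 at -1.55 to Mira at 4.79 in PRC1CKO cells, and in the other lists Snhg14, Miat and Trp53cor1 were called in at least 1 line.

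In all, 27 members enclose 45 miRNA genes of RefSeq on their own strand, a set drawn up after values were seen, and 9 of them are also in a list above. In PRC1CKO cells 5 rose and 4 fell (16.5% and 3.09% of all tested), and in PRC1CPM cells 4 rose and 1 fell (13.1% and 1.4%). The increases include Gm6307 in both lines and 2610100L16Rik in PRC1CKO cells, whose untreated means were under 10. AI854517, host of Mir9-3, went from 189, 126 and 125 to 385, 284 and 392 in PRC1CKO cells and from 166, 136 and 144 to 387, 258 and 333 in PRC1CPM cells. All treated libraries were above all untreated ones (1.27 ± 0.28 and 1.11 ± 0.28, adjusted p 0.00046 and 0.0033, limma), and the calls held in each of the 12 fits that leave out a library. D7Ertd143e, host of the ESC cluster, stood at 8695, 8485 and 6292 against 8041, 7975 and 7627 in PRC1CKO cells (0.03 ± 0.19) and at 6986, 7191 and 5769 against 8689, 7271 and 8630 in PRC1CPM cells (0.30 ± 0.19). It did not pass the test in either line, although its PRC1CPM groups did not overlap.

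The hosts of miR-124 genes, which are known from neurons, are described singly. A930011O12Rik, with Mir124a-1, fell from 713, 629 and 403 to 268, 240 and 284 (-1.10 ± 0.28, adjusted p 0.0023, limma), while in PRC1CPM cells it was at 225, 197 and 180 before and 231, 138 and 147 after OHT (-0.26). Untreated PRC1CKO libraries were thus above all the others. 2610100L16Rik, with Mir124a-2, stood at 2.30 in PRC1CKO cells on values of 8.94, 4.62 and 0 against 18.1, 35.2 and 8.72, whose groups overlap. It passed the threshold in 9 of the 12 fits, but it became a member through its OHT-treated libraries. Its increase is a description, and no contrast with A930011O12Rik is drawn from it. 2610203C20Rik, with Mir125b-1, rose by 1.76 ± 0.48 in PRC1CPM cells (adjusted p 0.0066) and stood at 0.99 (0.16) in PRC1CKO cells, and Mirlet7bhg was at 1.24 (0.053) and 0.79 (0.35). The PRC1CPM call of 2610203C20Rik held in 10 of the 12 fits. Gm6307, with Mir1a-1 and Mir133a-2, miRNAs of muscle, stood at 1.77 and 1.95 at a mean of 12.4 normalised reads, past the threshold in 6 and 8 of the 12 fits. With an untreated mean of 5.89 it became a member through its OHT-treated libraries, so that these values are descriptions. Of 21 members that enclose 47 snoRNA genes, 1 rose and 1 fell in each line, beside 16.5% and 3.09% of all tested in PRC1CKO and 13.1% and 1.4% in PRC1CPM cells.

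No member's response differed between the lines at an adjusted p under 0.05 in the interaction test of limma (0% higher and 0.0236% lower among all tested), nor with edgeR or DESeq2. With the replicate block 2 were called higher (0.250%; 0.46% of all tested) and 5 lower (0.624%; 1.45%), namely Slc6a17 (-1.66, adjusted p 0.0082), Mir6380 (-1.17, 0.0084), 2610316D01Rik (-1.66, 0.0097), Hoxd11 (-3.11) and Gm29683 (-2.33), which rose by less in PRC1CPM cells, and Halr1 (0.79, 0.022) and A930011O12Rik (0.85, 0.0499), whose fold changes were less negative there. Hoxd11 and Gm29683 became members through their OHT-treated libraries, and their differences are descriptions. The replicate numbers of PRC1CKO cells did not meet the criterion for pairing. Without the block 24 members (3.00%) had an unadjusted p under 0.05, against 2.93% of all transcripts tested. The smallest adjusted p was 0.32. Of the 61 members that rose in both lines, 44 rose by less in PRC1CPM cells, and 418 of all 801 members had an interaction below 0. The median interaction was -0.03 over members and -0.02 over all transcripts tested. Over members it turned to 0.42 with the spike-in scale before its correction by genomic DNA. The 44 are thus a description under the deposited scale. The direct comparison of untreated lines called 19 members higher (2.37%; 2.21% of all tested) and 4 lower (0.499%; 0.478%) in PRC1CPM than in PRC1CKO cells, and that of OHT-treated lines 13 higher (1.62%; 1.25%) and 2 lower (0.250%; 0.218%), shares near those of all transcripts. The untreated count rose to 60 higher (7.49%, and 8.81% of all tested) without untreated PRC1CKO replicate 1. It fell to 11 without untreated PRC1CKO replicate 3, and these are the ends of its range over the libraries left out in turn. With OHT the counts ran from 5, without OHT-treated PRC1CPM replicate 1, to 19 higher, with 8 and 1 without OHT-treated PRC1CKO replicate 2, and from 1, also without OHT-treated PRC1CPM replicate 2, to 4 lower, without untreated PRC1CPM replicate 1 or 2. With the replicate block the counts were 82 (10.2%; 9.63% of all tested) and 18 (2.25%; 1.49%) untreated, and 72 (8.99%; 6.68%) and 11 (1.37%; 1.37%) with OHT. With TMM they were 34 and 16 untreated and 37 and 5 with OHT. Without the correction by genomic DNA they were 9 and 9 untreated and 21 and 2 with OHT. Shares of all transcripts under these 2 scales are not given here. These comparisons use the same libraries as the OHT responses, and each line is 1 clone, so that the mutations and the clone cannot be told apart.

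Gm10754, a transcript of 285677 bp on chr10, was at 28.3, 28.5 and 30.4 in untreated and 22.6, 28.7 and 17.4 in OHT-treated PRC1CKO cells, and at 147, 222 and 248 and at 166, 221 and 210 in PRC1CPM cells. Every PRC1CPM library was above every PRC1CKO library (2.75, adjusted p 4.8e-07, untreated, and 3.08, 2.8e-08, with OHT, limma). 2810429I04Rik was at 721, 449 and 491 and at 454, 390 and 533 in PRC1CKO cells and at 187, 117 and 133 and at 165, 105 and 122 in PRC1CPM cells, all lower in the latter (-1.92 and -1.82). G730013B05Rik was higher in PRC1CPM cells, by 1.91 untreated and 2.59 with OHT. Gm21283 was at 8.94, 12.3 and 16.1 and at 1.81, 0 and 3.49 in PRC1CKO cells and at 90.8, 67.9 and 82.7 and at 40.5, 29.4 and 38.3 in PRC1CPM cells, higher by 2.62 untreated and by 3.98 with OHT, without overlap. 1700018B24Rik, a transcribed pseudogene, was at 0, 0 and 5.07 in untreated PRC1CKO and 17.9, 16.02 and 35.2 in untreated PRC1CPM cells (3.64, adjusted p 0.00012), and with OHT the difference was 1.46 (0.31).

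Markers of cell types moved in the same libraries, and their part in the changes of noncoding transcripts was not tested. Fewer cells of a type and less RNA per cell cannot be told apart in bulk RNA. The counts below stand beside 16.5% higher and 3.09% lower of all tested in PRC1CKO and 13.1% and 1.4% in PRC1CPM cells. Of 7 measured ESC markers Sox2 and Utf1 fell in PRC1CKO cells (-0.89 and -0.79) and none in PRC1CPM cells, with no marker at 0 in any library. The sum of the list, in which Tdgf1 was the most abundant in 9 of the 12 libraries, was 61639 ± 15215 (SD, n = 3) untreated and 45984 ± 3871 with OHT in PRC1CKO cells, and 56803 ± 10477 and 49295 ± 13934 in PRC1CPM cells. Pou5f1 (-0.56 in PRC1CKO cells) and Nanog (-0.22) were not called. Of 6 primitive endoderm markers 4 rose in PRC1CKO and 6 in PRC1CPM cells, and their sum went from 1151 ± 584 to 3582 ± 653 and from 738 ± 67.8 to 1925 ± 384, with Dab2 or Pdgfra the most abundant and no gene at 0.

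Of 5 measured mesoderm markers 4 rose in each line (sum 241 ± 142 to 814 ± 156, and 291 ± 133 to 844 ± 283, with Kdr the most abundant in all 6 OHT-treated libraries). Of 4 measured neuroectoderm markers 2 rose and 1 fell in PRC1CKO cells and 1 rose in PRC1CPM cells (sum 1445 ± 572 to 2219 ± 177, and 1636 ± 146 to 2042 ± 592). Nes was the most abundant of them except in untreated PRC1CKO replicates 2 and 3, where Tubb3 was. Of 4 measured trophoblast markers 1 rose and 1 fell in PRC1CKO and 2 rose in PRC1CPM cells (sum 1560 ± 193 to 1291 ± 147, and 1077 ± 27.8 to 1505 ± 284, mostly Tfap2c). The cells grew on gelatin, yet fibroblast markers were present, mostly as Col1a1, and 1 of 4 rose in PRC1CKO cells. Their sum was 5665, 2031 and 2668 untreated and 3930, 3124 and 3496 with OHT in PRC1CKO cells, and 14463, 3692 and 4622 and then 14740, 4505 and 6192 in PRC1CPM cells, highest in replicate 1 of both PRC1CPM groups. The markers listed at 0 in some libraries included the trophoblast marker Elf5, the mesoderm marker Mesp1, the neuroectoderm marker Neurog2, and the fibroblast markers Dcn and Lum, which lay at 0 together or singly in 10 of the 12 libraries.

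The targeted genes give little check of the labels, since a whole gene is 1 entry, with exons outside the deleted or exchanged part. Rnf2, the gene of RING1B, measured 1756, 1436 and 1385 untreated and 1489, 1565 and 1585 with OHT in PRC1CKO cells, and 1850, 1659 and 1578 against 1724, 1295 and 1513 in PRC1CPM cells. Ring1, the gene of RING1A, stood at 313, 204 and 166 against 281, 251 and 229, and at 179, 182 and 125 against 161, 111 and 148. Both genes overlapped between treated and untreated libraries in each line (0.03 and -0.17 for Rnf2, 0.20 and -0.20 for Ring1). The study's methods call the replicates biological, and the p-values measure the spread between them within 1 clone per line.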

How the data were processed

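RNA was sequenced in 12 libraries (80 bp paired ends, rRNA-depleted total RNA, directional kit), with gDNA-seq of the same cells making up 24 samples. Per the study's methods the authors discarded rDNA reads, aligned the rest to mm10 and dm6 with STAR and Bowtie 2, kept uniquely aligned reads without PCR duplicates, and counted them per entry of a gene set. The Bowtie 2 step served to map more intronic reads, and how reads were assigned to an entry is not described further. The deposited signal is the normalised read count, which is reads divided by a DESeq2 size factor from dm6 genes, corrected by the spike-in ratio of the gDNA-seq. Multiplied back, 100% of values came out whole within 0.02 of a read. Deposited fold changes and p-values of the authors' own comparisons, and signal tracks, were not used.

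Entries that reached 10 reads in 3 or more libraries entered the test, run on log2(normalised read count + 1) in 1 limma fit (3.58.1, R 4.3.3) of 4 group means with a trended variance prior. Alternatives were TMM factors, size factors without gDNA correction, a pseudocount of 0.1, no filter, a replicate block, a 2-fold limit, edgeR 4.0.16 and DESeq2 1.42.0 on the recovered reads, each library left out, and subsets of members. TMM with the block and a strict subset were added after seeing the data. The gDNA-seq read totals for the uncorrected scale came from the study's supplement.

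Same-numbered libraries deviated together, with correlations of 0.246 to 0.438 between PRC1CPM groups, 0.186 to 0.377 between untreated and 0.140 to 0.225 between OHT-treated lines. Between PRC1CKO groups the lowest was 0.0988, so that the criterion of over 0.1 in every pair was not met there.

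The members and lists were chosen with earlier results of these data known. Members named in the text are, per line, the 8 largest increases and decreases called with the same sign in all 3 same-numbered pairs, with their nearest coding gene. Others are called members and the 2 of highest level per kb of each list, up to 4 per comparison between lines, and the 6 highest per kb. The hosts of miRNA and snoRNA genes were chosen after their values were seen. Sequences and gene models are from RefSeq GRCm38.p6, the same assembly as mm10, and figures were drawn with matplotlib 3.10.9. Values of a few neighbouring and marker genes are not reported here.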

Additional observations from a re-analysis of the deposited data

How the results depend on the processing

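Counts are given as higher and lower members, for the OHT response of PRC1CKO cells (85 and 51), that of PRC1CPM cells (70 and 28), untreated PRC1CPM against untreated PRC1CKO cells (19 and 4) and the same with OHT (13 and 2). With TMM the decreases were 103 and 75, and the lines differed in 34 and 16 untreated and in 37 and 5 with OHT. Without the gDNA correction there were 9 decreases in PRC1CPM cells, and line differences were 9 and 9 untreated and 21 higher with OHT. A pseudocount of 0.1 gave 11 higher untreated, no filter 8 higher with OHT, edgeR 2 lower untreated, and DESeq2 29 higher untreated and 4 lower with OHT. With the replicate block the decreases were 89 and 73, line differences 82 and 18 untreated and 72 and 11 with OHT, and the interaction called 2 members higher and 5 lower (Hoxd11, 2610316D01Rik, Slc6a17, Gm29683, Halr1, A930011O12Rik and Mir6380). In PRC1CKO cells, whose same-numbered libraries did not meet the criterion, the block gave 116 higher. TMM with the block, chosen after seeing the data, gave 116 and 89 decreases, 52 and 25, 54 and 14, and 3 and 2 for the interaction. The cause of these shifts was not tested.

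Subsets of members hold fewer transcripts and so fewer calls. The 502 that overlap no coding entry had 56 and 32 in PRC1CKO cells, 46 and 17 in PRC1CPM cells, 10 higher untreated and 1 lower with OHT. Of the 756 with an untreated mean of at least 10, 43 rose in PRC1CPM cells. The 420 at a mean of at least 50 had 40 higher, 34 and 18, 10 and 2, and 1 lower. The strict subset of 446, without coding isoforms or extended entries, had 50 and 30, 41 and 16, 9 higher and 1 lower. Members minus level-weighted coding genes, in percentage points, were -12.8 and 3.66 in PRC1CKO and -10.5 and 2.35 in PRC1CPM cells. With ranges set on untreated levels, a description since both groups were admitted on all 12 libraries, the differences for increases were -17.2 and -14.9. With TMM they were 6.72 for PRC1CKO decreases and -12.5 and 6.54 in PRC1CPM cells, without the gDNA correction -9.80, -15.6 and 0.745, and with the block -15.9, 5.94, -16.4 and 6.43. All kept their sign.

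Leaving out 1 library gave 65 to 108 and 34 to 59 in PRC1CKO cells, 51 to 74 and 14 to 38 in PRC1CPM cells, 11 to 60 and 3 to 9 untreated, 5 to 19 and 1 to 4 with OHT, and 0 to 0 and 0 to 1 for the interaction. Decreases in PRC1CPM cells were 16 without OHT-treated replicate 2, 14 without OHT-treated replicate 3, 17 without untreated replicate 1 and 15 without untreated replicate 3 of that line. Decreases in PRC1CKO cells were 34 without its untreated replicate 1. Untreated line differences were 60 higher without PRC1CKO untreated replicate 1, 11 higher without PRC1CKO untreated replicate 3, 9 lower without PRC1CPM untreated replicate 2 and 7 lower without PRC1CPM OHT-treated replicate 1. With OHT they were 8 higher and 1 lower without PRC1CKO OHT-treated replicate 2, 5 higher without PRC1CPM OHT-treated replicate 1, 1 lower without PRC1CPM OHT-treated replicate 2, and 4 lower without PRC1CPM untreated replicate 1 or 2. The interaction called 1 member lower without PRC1CKO untreated replicate 1 or 2 or PRC1CPM untreated replicate 2.

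In every such fit 60 of the 85 increases and 26 of the 51 decreases of PRC1CKO cells were called, and 41 of 70 and 9 of 28 of PRC1CPM cells. Over the named members' responses and alternatives, 2130 values kept their side of the threshold, 17 passed it newly, 57 lost it and 0 changed sign. At 14668159 to 27016156 reads, members near 10 normalised reads rest on few reads per library, and the size of change that could be detected there was not measured.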

Other observations

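Several transcripts outside the naming rule, chosen after their values were seen, also rose. 6530403H02Rik, which encloses a snoRNA gene and has no coding start within 50 kb, went from 92.4, 114 and 71.0 to 450, 516 and 583 normalised reads in PRC1CKO cells and from 69.0, 182 and 108 to 471, 687 and 1128 in PRC1CPM cells. The groups were apart in both lines (2.49 and 2.68 on the log2 scale, adjusted p 6.9e-09 and 3.0e-09, limma), and the calls held in each of the 12 fits that leave out a library. 5430402O13Rik, which overlaps the cytochrome c gene Cycs on the opposite strand and encloses a miRNA gene, rose by 2.87 and 2.27, while Cycs stood at 0.50 and 0.02. The entry Mir6380, listed over 334992 bp and hence no measure of the miRNA, rose by 3.01 in PRC1CKO and by 1.84 in PRC1CPM cells. 6030407O03Rik rose by 1.16 in PRC1CKO cells, in 11 of the 12 fits, and stood at 0.71 (adjusted p 0.15) in PRC1CPM cells.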
